A study of Mus musculus with 26 samples.

Results

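The chromatin accessibility peaks that the deposited annotation assigns to replication-dependent histone genes were described in mouse Kupffer cells, macrophages that live in the sinusoids of the liver. A peak was taken when its gene name began with Hist1h, Hist2h, Hist3h or Hist4h, the names of the 4 histone gene clusters, which gave 165 of 96238 peaks on chromosomes 1 to 19, X and Y. Of these peaks, 129 belonged to the Hist1 cluster on chromosome 13, 28 to Hist2 on chromosome 3, 4 to Hist3 on chromosome 11 and 4 to Hist4h4 on chromosome 6. Hist1h2al, with 2 of the Hist1 peaks, lies apart from the others on the same chromosome. By histone class, 47 peaks were assigned to H2B, 44 to H4, 29 to H2A, 27 to H3 and 18 to the linker histone H1.

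The assay was ATAC-seq, in which a transposase cuts and tags open DNA. Control libraries came from untreated mice of the inbred strains A/J, BALB/cJ and C57BL/6J, with n = 4 for each strain. Lipopolysaccharide (LPS, a bacterial cell wall product sensed by TLR4) was given at 0.1 mg/kg into the peritoneum 2 h before Kupffer cells were isolated, with n = 3 in C57BL/6J and n = 2 in BALB/cJ, while A/J had no LPS libraries. These numbers follow the sample labels, and a legend in the study swaps them between both strains. The hybrid CB6F1/J, bred from both latter strains, had n = 4 untreated and n = 5 after LPS. All were male mice of 8 to 12 weeks, fasted overnight, and the controls received no injection. The 12 untreated libraries carry another library date than the LPS libraries, so LPS and date cannot be told apart in any LPS comparison.

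The 17 inbred libraries held 8.76e+06 to 2.54e+07 tags, apart from BALB/cJ control 4 with 1.78e+08. The values of untreated libraries came partly in steps of 0.5 tags (39.8 to 49.7% of values per library were not whole), and those of LPS libraries did not. Mitochondrial peaks, which were not analysed, held 0% of the tags in peaks in all 4 C57BL/6J controls. In every other inbred library they held 18.6 to 28.7%. The part of these differences in the strain and LPS comparisons was not tested. All 10 Kupffer cell markers checked had a peak within 1 kb of their start, with a summed level of 1178 to 1468 normalised tags per control library and 669.8 to 987.3 per LPS library. Monocyte markers had a peak for 2 of 5 genes (8.05 to 26.2 in controls, 21.8 to 40.7 after LPS), neutrophil markers for 2 of 6 (21.6 to 93.96 and 32.3 to 70.1), and endothelial, hepatocyte and erythroid markers for 1 of 5, 1 of 5 and 1 of 4, with no summed level above 49.7. No peak lay near any of 6 lymphocyte or 4 stellate cell markers. The part that these shifts have in the LPS results was not tested.

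Replication-dependent histone genes encode the core histones H2A, H2B, H3 and H4 and the linker histone H1. They are clustered, have no introns, and are known to be transcribed mainly in S phase, when new DNA needs packing. Their messenger RNAs end in a stem-loop in place of a poly(A) tail, which the stem-loop binding protein Slbp holds, and many H2A and H2B genes, and some H3 and H4 genes, are arranged head to head so that a pair of genes is transcribed outward from a single short stretch. Kupffer cells renew themselves in the liver, where few divide at a given time.

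The sequences that carry the findings were read from the RefSeq copy of the mouse genome (GRCm38.p6, the assembly called mm10), 5′ to 3′. The promoters of Hist1h4m (chr13:21811596-21811745, plus strand) and Hist1h4n (chr13:21832197-21832346, minus strand) are shown because they are identical over 150 bases (0 differences), which bears on the strain comparison. That of Hist1h4d (chr13:23581478-23581597, plus strand) is shown as an H4 promoter with lower accessibility after LPS, and capitals mark GGTCCG, a run found in H4 promoters, in all 3 and TATAAA, the TATA box, in Hist1h4d alone (the run of these letters near the 5′ end of the other 2 was left in lower case).
Hist1h4m upstream: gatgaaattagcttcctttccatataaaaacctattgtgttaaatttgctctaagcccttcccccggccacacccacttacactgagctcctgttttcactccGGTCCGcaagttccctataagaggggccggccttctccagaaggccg
Hist1h4n upstream: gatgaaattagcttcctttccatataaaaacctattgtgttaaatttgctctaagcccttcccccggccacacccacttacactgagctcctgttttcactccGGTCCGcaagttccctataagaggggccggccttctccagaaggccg
Hist1h4d upstream: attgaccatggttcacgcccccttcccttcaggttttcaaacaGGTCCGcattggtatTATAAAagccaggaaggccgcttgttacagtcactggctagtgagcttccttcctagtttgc

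The stretch between the head-to-head genes Hist1h2ae and Hist1h2bg (chr13:23571221-23571395, plus strand) is shown as a promoter with 2 starts, and capitals mark CCAAT, the box bound by NF-Y, on either strand. The whole 200-bp peak 24313 bp from Hist1h2ac (chr13:23659546-23659745, plus strand) is shown because it had the largest log2 ratio after LPS of any histone peak called in both inbred strains, and capitals mark TGANTCA, a run that AP-1 factors bind, and GAGGAA, which the macrophage factor PU.1 binds, on either strand. The stem-loop next to the peak 429 bp downstream of Hist1h2bg (chr13:23571843-23571858, plus strand) is shown with its loop in capitals.
Hist1h2ae to Hist1h2bg: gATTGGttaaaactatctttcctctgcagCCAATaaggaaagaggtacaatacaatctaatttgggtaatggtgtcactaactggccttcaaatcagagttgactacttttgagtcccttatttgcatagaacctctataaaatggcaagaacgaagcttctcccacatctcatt
Hist1h2ac +24313: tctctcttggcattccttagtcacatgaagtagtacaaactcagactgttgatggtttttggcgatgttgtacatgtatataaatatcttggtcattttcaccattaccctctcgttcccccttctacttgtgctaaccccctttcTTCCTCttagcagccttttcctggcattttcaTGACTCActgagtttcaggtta
stem-loop near Hist1h2bg +429: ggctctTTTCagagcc

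The histone classes differed in the runs their promoters hold. In the RefSeq table of promoters (250 bases before to 50 after each start, 32851 promoters), 62 belonged to histone genes of the 4 clusters, and motifs were searched on both strands. CCAAT was in 85.5% of histone promoters and in 37.4% of all promoters, and at least 2 copies were in 17 of 17 H2A, 17 of 17 H2B and 8 of 10 H3 promoters but in 1 of 12 H4 promoters (11.7% of all promoters). GGTCCG was in 11 of 12 H4 promoters against 8.25% of all. AAACACA, known as the AC box of H1 genes, was in 5 of 6 H1 promoters against 7.18% of all. The octamer atttgcat, bound by Oct-1, was in 7 of 17 H2A and 7 of 17 H2B promoters against 1.74% of all, and TATAAA was in 35 of 62 histone promoters against 13.6% of all. A match is a description of letters and not a site in use.

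Of the 165 peaks, 53 had their centre within 250 bp of the assigned start, 41 lay 250 to 1000 bp downstream of it, 13 lay 250 to 1000 bp upstream and 58 lay beyond 1 kb. By the GENCODE vM21 annotation, 86 centres were intergenic, 31 in a UTR exon, 17 in a non-coding exon, 17 in an intron and 14 in a coding exon. Of the 70 genes of the 4 clusters in that annotation, 60 had a peak within 250 bp of a start. Hist1h4a, Hist1h1d and Hist2h2aa1 were not among these, although each had a peak within 250 bp of the start assigned in the deposited annotation. The 53 peaks at a start comprised 13 H4, 12 H3, 12 H2B, 11 H2A and 5 H1 peaks, and 11 of them lay within 500 bp of the starts of 2 histone genes. Their 200-bp sequences were poorer in G and C than those of all 11738 peaks at a start, with a median of 51% against 65%, and in CpG, with 10 against 17 per peak.

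The peaks downstream of a start lie where the short genes end. The stem-loop, in 1 of the forms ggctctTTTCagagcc (29 of 37 distinct matches) and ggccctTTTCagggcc (8 of 37), lay within 500 bp of the centre of 49 of the 165 histone peaks and of 1 of the other 96073 peaks. Histone peaks were chosen by genes whose messages end in this stem-loop, so the contrast follows from that choice. Repeated sequence was more common than elsewhere: in 14 of 165 histone peaks (8.48%) at least 50% of the 30-base runs occurred more than once in the genome, against 1.23% of all peaks. The share of peaks that were reproducible in all 5 inbred groups was 43.0% (71 of 165) against 39.8% of the other peaks, and at starts 75.5% against 80.2%.

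Untreated Kupffer cells were accessible at the starts of all 5 classes. The mean normalised tags per 200 bp over the 12 control libraries had a median of 112.6 for the 53 start peaks (range 6.91 to 355.9), 20.2 for downstream peaks, 15.8 for upstream peaks and 16.9 beyond 1 kb. Other peaks also fell away from starts. Their library medians, averaged per untreated strain, were 84.1 to 91.3 at starts and 19.2 to 21.7 downstream. Upstream they were 20.35 to 22.9 and beyond 1 kb 15.2 to 15.6. Of the classes, H2B start peaks had the highest median level at 176.0, followed by H4 at 120.3, H2A at 87.9, H1 at 84.5 and H3 at 57.4. The 11 peaks shared by 2 starts had a median of 206.3 and the other 42 start peaks one of 87.2. These ranges overlapped between all classes, so the order of the medians is not an order of the classes' peaks.

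**Figure D1:**
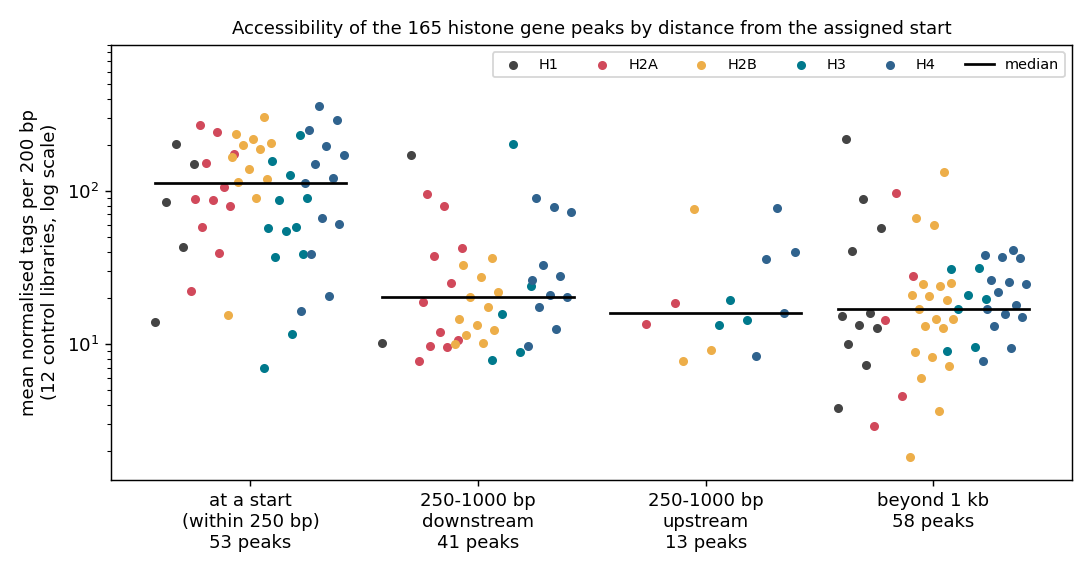
Mean normalised tags per 200 bp over the 12 control libraries (log axis) of each of the 165 histone gene peaks, grouped by distance from the assigned start and coloured by histone class, with a black line at the median of each position. The 53 peaks at a start have a median of 112.6 and the other 3 positions medians between 15.8 and 20.2.

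The most accessible peaks were named by histone class. Hist1h4a −250 (chr13:23761399-23761598) had the highest level of all, with 341, 365, 303 and 304 tags in A/J, 316, 447, 250 and 286 in BALB/cJ, with 387, 518, 376 and 379 in C57BL/6J controls. The 3 strains overlapped there, with C57BL/6J control 2 as the highest library. The highest start peaks of the other classes were Hist1h2bp −103 (mean 301.3), Hist1h2ad −50 (270.0), Hist1h3e −142 (232.1) and Hist1h1e +53 (200.9). The lowest start peak was Hist1h3f −65 at 6.91.

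Close histone peaks in the clusters did not overlap in these tables, although they would at the window the methods name. Genes could still share a peak, as at the 11 start peaks within 500 bp of 2 histone gene starts. All regions in the deposited table were 200 bp wide, and the values matched the tag numbers of the 200-bp regions in the peak files of each library (median ratio per library 0.951 to 1.00), not 1000-bp windows. Of 3177 pairs of peaks with starts at most 400 bp apart, whose 1000-bp windows would be largely the same, 1413 (44.5%) differed more than 3-fold in summed tags. The closest centres of histone peaks were 351 bp apart, so 0 of 165 regions overlapped another at 200 bp, whereas at 1000 bp 125 of them would have overlapped in 43 chains.

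The longest such chain had 11 peaks over 6907 bp of chromosome 13, from Hist1h2ae to Hist1h3d, and alternated between strong starts and weak ends. Its start peaks Hist1h2bg −53, Hist1h2ad −50 and Hist1h3d −23 had control means of 234.0, 270.0 and 157.0 normalised tags per 200 bp. The peaks next to them, Hist1h2bg +429, Hist1h2ad +503 and Hist1h3d +402, had 27.2, 25.2 and 24.1. The other 5 had 8.19 to 20.2. A 1000-bp window around Hist1h2bg +429, Hist1h2ad +503, Hist1h3d +402 or Hist1h2ae +457 would have reached into the strong region beside it.

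**Figure D2:**
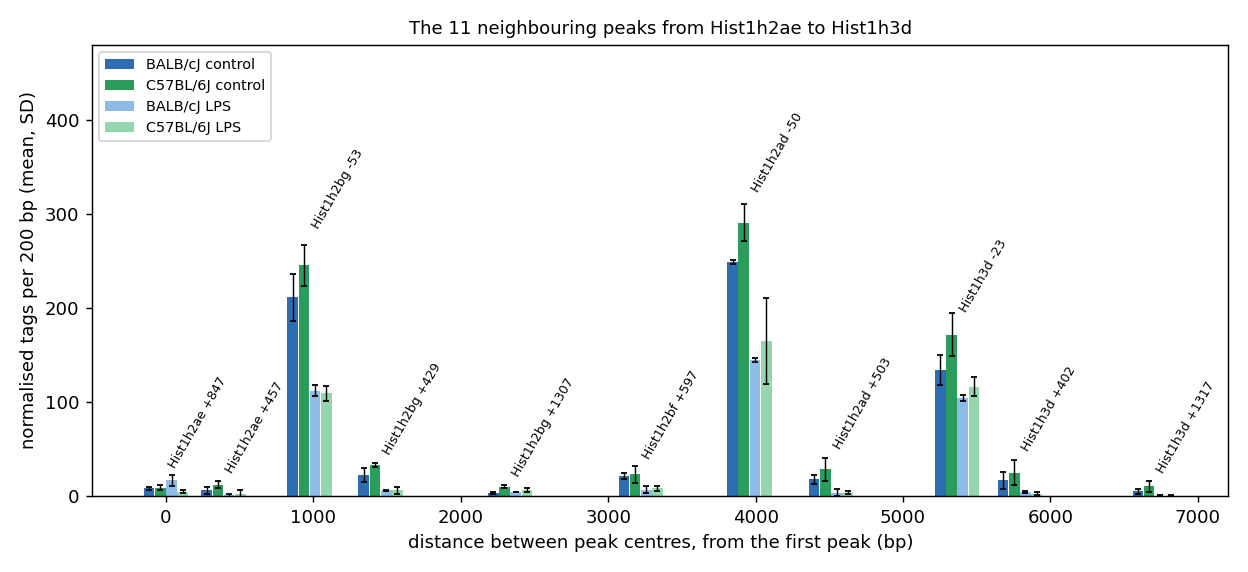
Normalised tags per 200 bp (mean and SD as bars and whiskers; 4 control libraries per strain, 2 BALB/cJ LPS and 3 C57BL/6J LPS libraries) at the 11 neighbouring peaks from Hist1h2ae to Hist1h3d, placed by the distance between centres in bp. The 3 start peaks stand at 104 to 291 tags in every group, and the peaks beside them fall from 16.8 to 33.5 tags in controls to 2.80 to 6.56 after LPS.

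The strain comparisons ask how far accessibility at these genes differs between genetic backgrounds in untreated animals. A peak was called when edgeR's quasi-likelihood test gave a Benjamini-Hochberg adjusted p under 0.05 and an absolute log2 ratio over 1, among peaks with a mean above 16 normalised tags. In C57BL/6J against BALB/cJ, 108 histone peaks were tested, 7 were higher and 0 lower in C57BL/6J, where 3.14% of all tested peaks were higher and 4.16% lower, and the median log2 ratio of the histone peaks was 0.32 against 0.02 for all peaks. In A/J against BALB/cJ, 1 of 110 was higher and 0 lower in A/J (1.58% and 3% of all tested peaks), with a median of 0.30 against 0.02. In A/J against C57BL/6J, 6 of 120 were higher and 5 lower in A/J (3.29% and 3.87%), with a median of −0.01 against −0.01. The 3 comparisons share their control groups. The medians for all peaks take in peaks at any distance from a start. At starts, the mean of library medians was 113.8 in A/J, 93.7 in BALB/cJ and 113.2 in C57BL/6J for histone peaks. Other start peaks had 89.6, 84.1 and 91.3, also lowest in BALB/cJ, and other peaks beyond 1 kb had 15.2, 15.6 and 15.4. The part of position in the medians above was not tested. Markers of other cells also differed between the untreated strains: summed neutrophil marker tags were 65.4 to 93.96 in BALB/cJ, 30.7 to 67.8 in C57BL/6J, with 21.6 to 33.9 in A/J, endothelial tags 24.4 to 49.7, 2.60 to 11.97 and 12.2 to 18.8, and monocyte tags 8.05 to 13.7, 16.2 to 26.0 and 16.4 to 26.2. Their part in the strain results was not tested.

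The histone peak with the largest difference between strains was at a start that another gene copies. Hist1h4n −1 (chr13:21811683-21811882), which by GENCODE lies at the start of Hist1h4m, held 53.3, 36.9, 68.9 and 37.2 normalised tags in C57BL/6J controls and 0 in all 4 A/J and all 4 BALB/cJ controls. Against a floor of 3 tags over the group the level in C57BL/6J was at least 44.1-fold higher than that of A/J and at least 219-fold higher than that of BALB/cJ (edgeR adjusted p = 2.31e-08 and 2.12e-10). The groups did not overlap. Its promoter is the 1 printed above with an identical copy, and Hist1h4n +31 (chr13:21832027-21832226), at the start of that copy, was higher in A/J than in C57BL/6J controls and overlapped between BALB/cJ and C57BL/6J, with 49.3, 78.8, 85.5 and 116 in A/J, 44.8, 60.5, 95.3 and 47.1 in BALB/cJ, with 31.9, 36.9, 39.0 and 47.9 in C57BL/6J.

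When the tags of both copies were summed, no difference between untreated strains was called. Per the methods, A/J and BALB/cJ reads were aligned to genomes built for those strains and shifted to mm10 positions. The part that this has in the division between copies was not tested. The sums were 82.3 ± 27.3 (SD, n = 4) in A/J, 61.9 ± 23.3 (n = 4) in BALB/cJ, with 88.0 ± 14.3 (n = 4) in C57BL/6J, with log2 ratios of 0.54 ± 0.26 (SE) for C57BL/6J over BALB/cJ (edgeR adjusted p = 0.213) and −0.10 ± 0.26 for A/J over C57BL/6J (edgeR adjusted p = 0.879). The start peaks of Hist2h3c1 and Hist2h3c2, 2 genes for H3, had a like division. Hist2h3c1 −6 (chr3:96246579-96246778) held 31.3, 33.7, 32.5 and 19.9 in C57BL/6J, 1.54 to 5.47 in A/J and 0.0921 to 4.03 in BALB/cJ controls, with log2 ratios of 4.16 ± 0.72 over BALB/cJ and −3.31 ± 0.70 for A/J over C57BL/6J (edgeR adjusted p = 7.04e-05 and 0.00116). Hist2h3c2 +19 held 66.3, 75.5, 85.5 and 62.6 in A/J against 34.8, 46.5, 36.4 and 15.96 in C57BL/6J (log2 ratio 1.12 ± 0.35, edgeR adjusted p = 0.0335), and the sums of the pair gave 0.09 for C57BL/6J over BALB/cJ and 0.27 for A/J over C57BL/6J (edgeR adjusted p = 0.912 and 0.694). Hist2h3c1 −6 had a mean of 16.1 normalised tags over C57BL/6J and BALB/cJ, just above the minimum of 16. Its call over BALB/cJ was lost in 9 of the 17 fits that left out a library. Among them were those without any 1 of the C57BL/6J controls or without BALB/cJ control 4 (log2 ratio 2.99 to 4.27). Its call in A/J against C57BL/6J was lost in 10 of the 17, those without any 1 of the C57BL/6J controls among them (−3.46 to −3.24). That of Hist2h3c2 +19 was lost without A/J control 2 or 3 or C57BL/6J control 1, 3 or 4 (0.90 to 1.18).

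**Figure D3:**
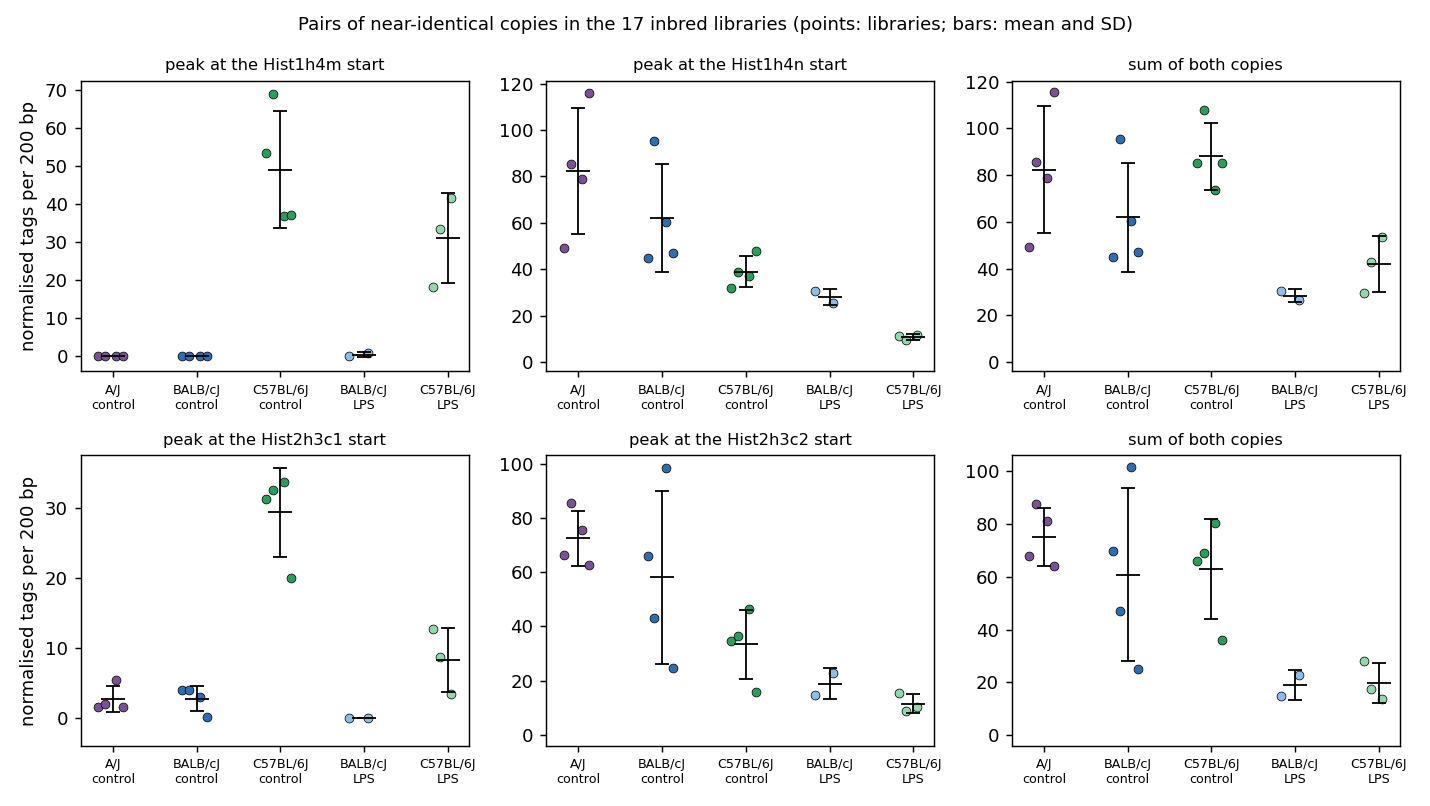
Normalised tags per 200 bp in each of the 17 inbred libraries (points; bars are mean and SD) at both copies of an H4 gene (top) and of an H3 gene (bottom) and for their sums. In C57BL/6J the tags are divided between both copies, in A/J and BALB/cJ nearly all lie on 1 copy, and the sums of the 3 strains overlap.

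Other strain differences lay at peaks that were not summed with a copy. Hist3h2ba −130 (chr11:58948681-58948880), at the start of an H2B gene and with 4 matches to CCAAT, held 40.6, 35.3, 33.8 and 27.9 in C57BL/6J, 3.08, 5.47, 12.2 and 4.70 in A/J and 0, 8.78, 8.05 and 6.36 in BALB/cJ controls, without overlap between C57BL/6J and the others. Its log2 ratio was 2.50 ± 0.43 over BALB/cJ and −2.50 ± 0.48 for A/J over C57BL/6J (edgeR adjusted p = 5.46e-05 and 0.000292). Hist1h1c −8185 (chr13:23730522-23730721), intergenic, held 30.7, 54.6, 23.4 and 31.9 in C57BL/6J, 0 to 9.85 in A/J and 3.04 to 10.6 in BALB/cJ, with ratios of 2.71 ± 0.46 and −2.78 ± 0.51 (edgeR adjusted p = 5.67e-05 and 0.000159). Both were called in each of the fits against BALB/cJ that left out a library, and the call of Hist1h1c −8185 against A/J was lost without C57BL/6J control 2 (−2.50).

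Peaks higher in A/J than in C57BL/6J included 1 H2A start. Hist1h2al +142 (chr13:51202824-51203023) held 27.8, 43.8, 28.5 and 42.2 in A/J, 38.2, 30.2, 21.5 and 23.8 in BALB/cJ, with 0.580, 1.60, 6.50 and 1.33 in C57BL/6J controls, a log2 ratio of 3.99 ± 0.54 for A/J over C57BL/6J (edgeR adjusted p = 1.02e-06). Hist2h2bb +4025 (chr3:96273625-96273824), in an intron of Gm42743, held 27.4 to 36.0 in A/J, 18.5 to 31.1 in BALB/cJ, with 0 to 4.64 in C57BL/6J, a ratio of 3.40 ± 0.53 (edgeR adjusted p = 1.34e-05). Of the 30-base runs of Hist1h2al +142, 70.2% occur more than once in the genome, with a copy at the start of Hist2h2ac, and the part of this in its ratio was not tested. The means over BALB/cJ and C57BL/6J of both peaks lay under the minimum of 16, so they were not tested in that comparison. The call of Hist1h2al +142 was lost without A/J control 2 (3.89), and that of Hist2h2bb +4025 without A/J control 1, 2 or 4 (3.36 to 3.50).

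The remaining calls between untreated strains were smaller. They were Hist1h4a +418 (1.17) and +952 (1.14) and Hist1h2bl +1225 (1.07) for C57BL/6J over BALB/cJ, Hist1h2ak +391 (1.08) for A/J over BALB/cJ, and Hist1h2ah +8964 (1.87), Hist2h3c1 −465 (1.33), Hist1h4n +31 (1.09) and Hist1h4c −2518 (−1.06) for A/J over C57BL/6J. The libraries of the strains compared overlapped at Hist1h4a +418, Hist1h4a +952 and Hist1h2ah +8964. Leaving out a library ended the calls of Hist1h4a +418 (0.86 without BALB/cJ control 4), Hist1h2ak +391 (0.95 without BALB/cJ control 2), Hist1h2ah +8964 (1.5 without A/J control 2), Hist2h3c1 −465 (1.18 without A/J control 4), Hist1h4n +31 (0.90 without A/J control 4) and Hist1h4c −2518 (−0.76 without C57BL/6J control 3). Those of Hist1h4a +952 (0.96 without BALB/cJ control 4) and Hist1h2bl +1225 (0.74 without C57BL/6J control 2) were lost in 11 of the 17 fits that left out a library. That of Hist1h4a +418 was lost in 12, that of Hist2h3c1 −465 in 8, that of Hist1h2ak +391 in 5 and that of Hist1h4c −2518 in 3. Repeated runs made up 80.7% of Hist2h3c1 −465 and 59.1% of Hist1h2ak +391, and their part was not tested.

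The LPS comparisons ask how accessibility at these genes changes within 2 h of a bacterial stimulus. In C57BL/6J, 160 histone peaks with a mean above 4 were tested, 42 were lower and 3 higher after LPS, where 8.07% of all tested peaks were lower and 12.3% higher. In BALB/cJ, 41 of 157 were lower and 10 higher, where 11.3% of all tested peaks were lower and 16.2% higher. The median log2 ratio of the histone peaks was −0.77 in C57BL/6J and −0.71 in BALB/cJ, against −0.03 and −0.07 for all peaks. Of the peaks lower in either strain, 27 were lower in both, 27 of 42 in C57BL/6J and 27 of 41 in BALB/cJ. Without C57BL/6J LPS 3 the number called in C57BL/6J was 27 in place of 45, and without BALB/cJ LPS 2 that in BALB/cJ was 28 in place of 51. The share of all tags in peaks that lay in the 165 was 0.194 to 0.256% in control and 0.149 to 0.182% in LPS libraries, without overlap.

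The median of the histone peaks lay below 0, and below that of other peaks, at every position. At starts the median log2 ratio was −0.84 in C57BL/6J (17 of 52 lower) and −0.78 in BALB/cJ (20 of 51 lower), where the other peaks at a start of any gene had medians of −0.42 (16.5% lower) and −0.54 (23.9% lower). From 250 to 1000 bp downstream it was −1.15 (19 of 41 lower) and −1.18 (14 of 41 lower), where other peaks at that distance had −0.45 (17.1% lower) and −0.37 (16.2% lower). Upstream peaks had −0.74 and −1.05 against −0.21 and −0.16. Beyond 1 kb the medians were −0.48 and −0.28, with 4 of 54 and 5 of 52 lower and 2 and 8 higher, against 0.11 (5.85% lower and 15.1% higher) and 0.07 (8.84% and 19.4%) for other peaks.

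**Figure D4:**
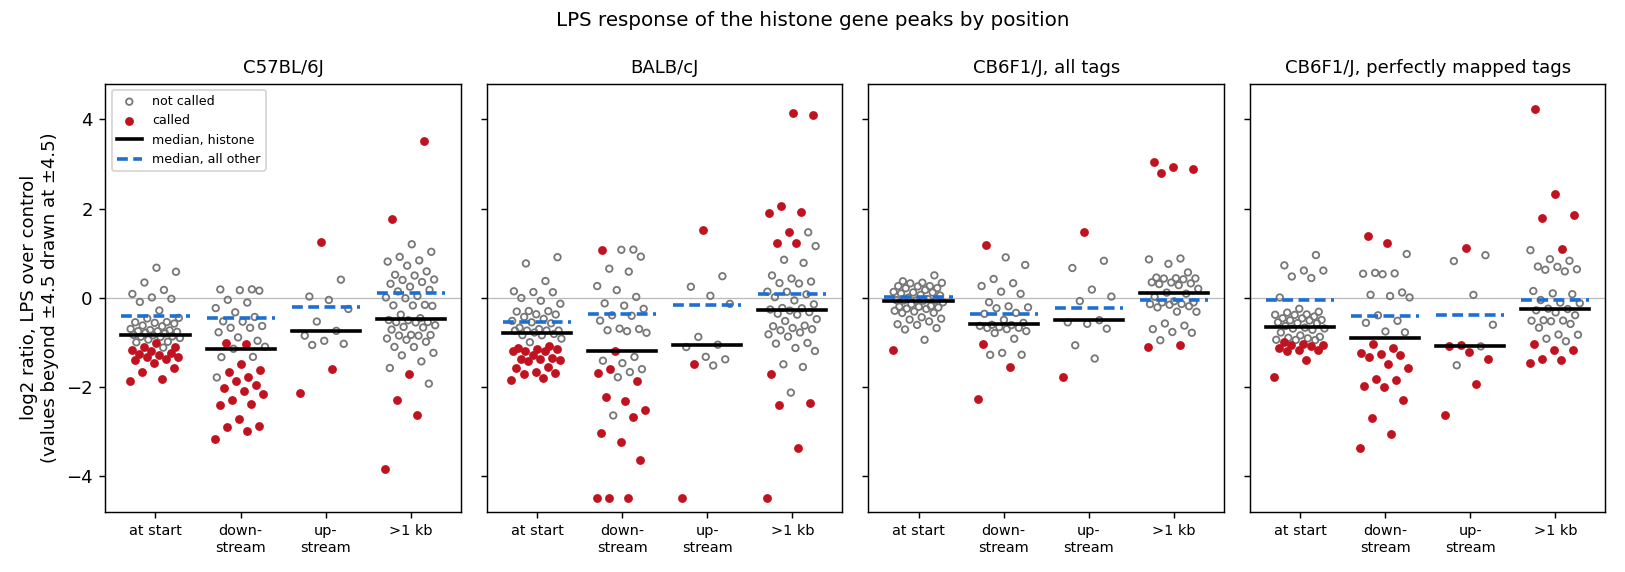
Log2 ratio of LPS over control for each tested histone gene peak by position, in C57BL/6J, BALB/cJ and the hybrid counted by all tags and by perfectly mapped tags; red points were called, black lines are medians of the histone peaks and blue dashed lines medians of all other peaks at that position. The black lines at starts lie at −0.84, −0.78, −0.06 and −0.65 and those downstream at −1.15, −1.18, −0.59 and −0.91.

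Among start peaks the classes differed in how many were called. H4 start peaks were lower in 7 of 13 in C57BL/6J and 9 of 12 in BALB/cJ, H1 in 3 of 5 and 3 of 5, and H2A in 4 of 10 and 4 of 11. These lay above the shares of other start peaks given above. H3 start peaks, lower in 2 of 12 and 3 of 11, were near those shares, and H2B, with 1 of 12 in each strain, below them. The difference between classes was not tested. In the hybrid, by perfectly mapped tags (described below), H4 and H2B start peaks did not differ in this count, with 3 of 11 lower in each. Of the 27 peaks lower in both strains, 13 were at a start, 11 were downstream and 3 lay beyond 1 kb. Among these, the C57BL/6J calls of Hist1h2ak +391 and Hist1h4n +554 were each lost in 13 of the 17 fits that left out a library.

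H4 starts gave the clearest values. Hist1h4d −37, whose promoter is printed above, held 235, 355, 330 and 255 normalised tags in C57BL/6J control and 139, 131 and 104 in C57BL/6J LPS libraries, and 192, 303, 302 and 229 in BALB/cJ control against 67.1 and 88.8 in BALB/cJ LPS libraries. It fell by 1.24 ± 0.20 (SE) on the log2 scale in C57BL/6J and 1.71 ± 0.24 in BALB/cJ (edgeR adjusted p = 1.86e-05 and 1.25e-06), with no overlap in either strain. Hist1h4a −250 went from the levels given above to 190, 202 and 185 in C57BL/6J LPS and 103 and 99.4 in BALB/cJ LPS libraries. It fell by 1.11 ± 0.17 and 1.68 ± 0.20 (edgeR adjusted p = 1.04e-05 and 1.96e-07), and its call in C57BL/6J was lost without C57BL/6J control 2 (−0.96).

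Every LPS library lay under every control library of its strain at these H4 starts. Hist4h4 +5 (chr6:136804326-136804525), the H4 gene alone on its chromosome, held 139, 162, 160 and 176 in C57BL/6J control and 74.4, 59.4 and 75.7 after LPS, and 164, 211, 188 and 150 against 80.2 and 64.2 in BALB/cJ, a fall by 1.18 ± 0.18 and 1.29 ± 0.21 (edgeR adjusted p = 1.29e-05 and 1.24e-05). Hist1h4h −13 fell by 1.29 and 1.42, Hist2h4 +172 by 1.37 and 1.81, and Hist1h4n +31 by 1.82 and 1.12, the latter lost as a call without BALB/cJ control 3 (−0.87) or either LPS library. The summed copies of Hist1h4m and Hist1h4n fell by 1.05 ± 0.29 in C57BL/6J and 1.09 ± 0.35 in BALB/cJ (edgeR adjusted p = 0.00767 and 0.0155), and those of the Hist2h3c pair by 1.70 ± 0.39 and 1.63 ± 0.44 (0.00139 and 0.00464).

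Starts of linker histone and H2A genes were also lower. Hist1h1c +16 (chr13:23738723-23738922), the start of the gene for H1.2, held 137, 196, 174 and 164 in C57BL/6J control and 96.9, 72.2 and 25.5 after LPS, and 133, 112, 140 and 132 against 58.4 and 54.5 in BALB/cJ. It fell by 1.40 ± 0.26 and 1.19 ± 0.29 (edgeR adjusted p = 0.000115 and 0.00182), with no overlap. Hist1h1e +53 (H1.4) fell by 1.10 and 1.16, Hist1h1d +58 (H1.3) by 1.27 and 1.21, Hist2h2aa2 −232 by 1.66 and 1.83, Hist2h2aa1 +12 by 1.32 and 1.15 and Hist1h2ab +5 by 1.33 and 1.55. Without C57BL/6J LPS 3 the calls of Hist1h1c +16 (−0.96), Hist1h1d +58 and Hist1h2ab +5 in C57BL/6J were lost, and that of Hist1h1e +53 without C57BL/6J control 3 (−0.92). In C57BL/6J the calls of Hist1h1d +58 and Hist1h2ab +5 were each lost in 4 of the 17 fits that left out a library. In BALB/cJ the call of Hist1h1d +58 (edgeR adjusted p = 0.0498) was lost in 10 of these fits, those without either LPS library among them. That of Hist1h2ab +5 in BALB/cJ was lost without either LPS library, that of Hist1h1e +53 without LPS 2 (−0.93) and that of Hist2h2aa1 +12 without LPS 1 (−0.99).

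The promoter between Hist1h2ae and Hist1h2bg lay near the fold limit of a call. Hist1h2bg −53 (chr13:23571247-23571446) held 230, 276, 247 and 230 in C57BL/6J control against 115, 113 and 99.6 after LPS, and 190, 189, 238 and 228 against 108 and 116 in BALB/cJ. Its log2 ratios were −1.17 ± 0.16 in C57BL/6J, which was called, and −0.92 ± 0.19 in BALB/cJ, which was under the fold limit (edgeR adjusted p = 3.21e-06 and 0.000231). Hist1h2ad −50 had −0.83 and −0.78 and Hist1h3d −23 −0.55 and −0.37, neither called.

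In the chain above, peaks downstream of a start had ratios further from 0 than the starts next to them, a difference that was not tested. Hist1h2ad +503 (chr13:23574784-23574983) held 35.4, 14.4, 23.4 and 41.2 in C57BL/6J control and 5.62, 3.40 and 2.39 after LPS, and 23.7, 20.5, 13.4 and 15.1 against 6.10 and 0.879 in BALB/cJ. It fell by 3.00 ± 0.53 and 2.32 ± 0.61 (edgeR adjusted p = 6.87e-05 and 0.00337). Hist1h2bg +429, beside the stem-loop printed above, held 30.1, 35.3, 33.8 and 34.6 against 5.62, 10.2 and 3.19 in C57BL/6J, and 26.4, 18.5, 30.9 and 14.3 against 6.97 and 6.16 in BALB/cJ, a fall by 2.37 ± 0.44 and 1.70 ± 0.50 (edgeR adjusted p = 0.00013 and 0.00874).

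All LPS libraries were below all control libraries of their strain at both peaks. Hist1h3d +402 fell by 3.18 in C57BL/6J and 1.86 in BALB/cJ. In BALB/cJ the calls of Hist1h3d +402 and Hist1h2bg +429 were lost without either LPS library and that of Hist1h2ad +503 without LPS 2 (−1.51). Hist1h4i +357 fell by 2.02 and 2.52. In C57BL/6J the largest falls also included Hist1h3d +1317 (3.83), Hist3h2bb-ps +464 (2.89) and Hist1h2ah +514 (2.87). In BALB/cJ both LPS libraries were at 0 at Hist1h4n +565, Hist1h4d −587, Hist1h2bh +809, Hist1h3d +2320 and Hist1h4n +554, which were lower by at least 10.5-fold, 8.14-fold, 7.49-fold, 6.87-fold and 5.31-fold against a floor of 3 tags over the group, and the calls of Hist1h3d +2320 and Hist1h4n +554 were lost without either BALB/cJ LPS library and without BALB/cJ control 2 and control 3, respectively. Downstream peaks are low, with 2.80 to 6.56 tags on average after LPS at the peaks of the chain above, so their ratios rest on few tags.

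A few distal peaks rose. Hist1h2ac +24313, the 200-bp peak printed above with 1 TGANTCA and 1 GAGGAA, held 4.64, 6.42, 3.90 and 2.66 in C57BL/6J control and 21.1, 62.0 and 67.7 after LPS, and 1.32, 1.95, 1.34 and 4.51 against 40.1 and 71.2 in BALB/cJ. Its log2 ratio was 3.52 ± 0.49 in C57BL/6J and 4.10 ± 0.49 in BALB/cJ (edgeR adjusted p = 2.66e-06 and 1.84e-07), and no LPS library overlapped a control library. It is intergenic, the nearest start being that of Gm22452 at 3375 bp, so its histone name states only a distance.

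The other peaks that rose in both strains were less separated. Hist1h1c −10434 (chr13:23728273-23728472) held 8.12, 16.1, 7.80 and 6.65 against 16.9, 38.2 and 39.0 in C57BL/6J, and 7.91, 9.75, 20.1 and 14.7 against 40.1 and 34.3 in BALB/cJ, with ratios of 1.77 ± 0.44 and 1.48 ± 0.44 (edgeR adjusted p = 0.00257 and 0.00892). Hist2h2aa2 −658 (chr3:96244699-96244898) held 15.1, 11.2, 6.50 and 25.3 against 15.4, 34.0 and 53.4 in C57BL/6J, which overlap, and 17.1, 12.7, 13.4 and 14.8 against 34.0 and 50.1 in BALB/cJ, with ratios of 1.26 ± 0.41 and 1.53 ± 0.44 (edgeR adjusted p = 0.022 and 0.00671). Its call in C57BL/6J was lost without C57BL/6J LPS 3 (0.83) or without C57BL/6J control 2 or 3 (1.20 and 1.06). In BALB/cJ its call was lost without LPS 2 (1.24), and that of Hist1h1c −10434 without LPS 1 (1.39).

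**Figure D5:**
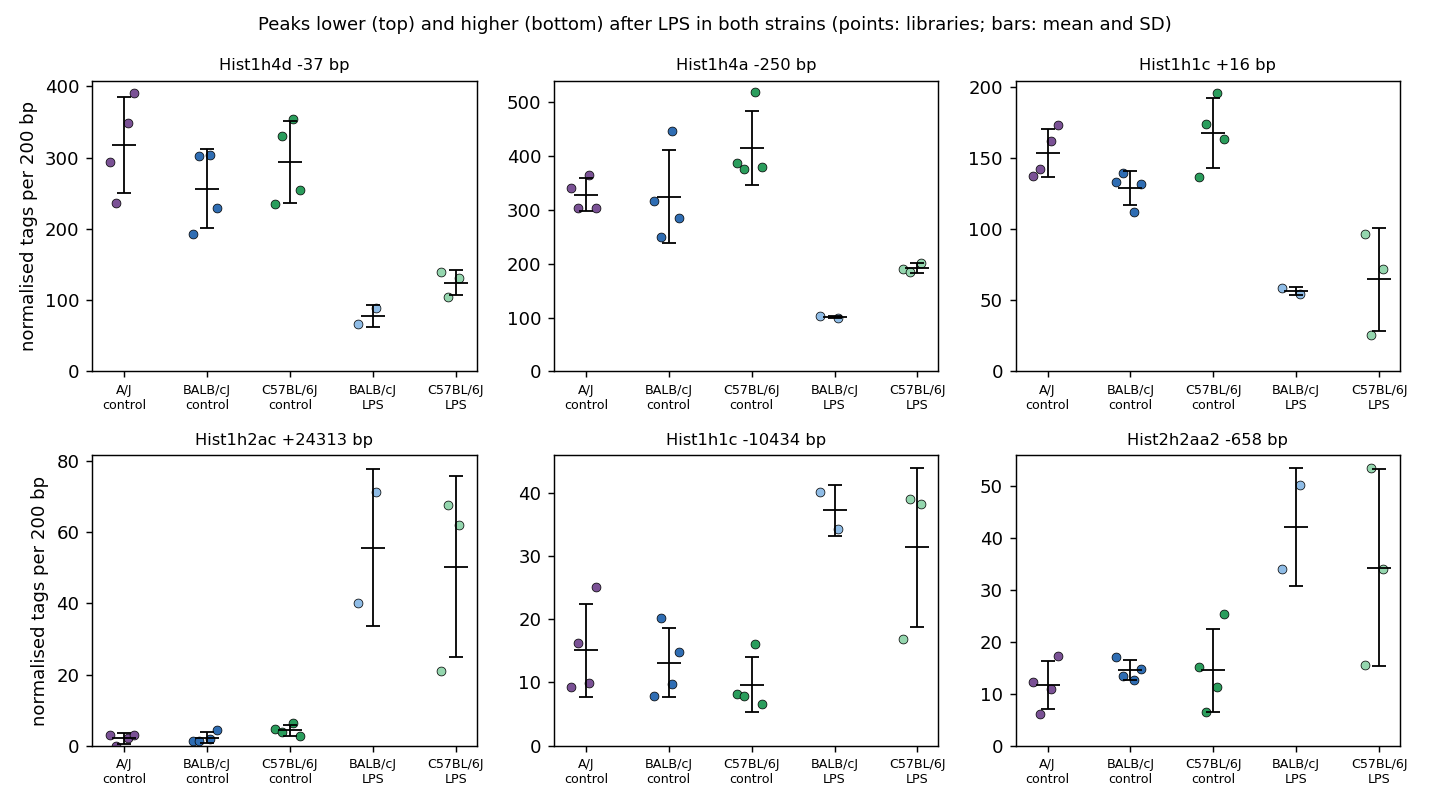
Normalised tags per 200 bp in each of the 17 inbred libraries (points; bars are mean and SD) at 3 start peaks that were lower after LPS in both strains (top: Hist1h4d −37, Hist1h4a −250, Hist1h1c +16) and the 3 peaks that were higher in both (bottom: Hist1h2ac +24313, Hist1h1c −10434, Hist2h2aa2 −658). All LPS libraries lie under the controls of their strain in the top row, and above them in the bottom row except at Hist2h2aa2 −658 in C57BL/6J.

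In BALB/cJ 7 further peaks rose: Hist2h2bb +5094 (4.15), Hist1h2al −36052 (2.06), Hist1h4c −2518 (1.92), Hist1h1c −8185 (1.90), Hist2h4 +7193 (1.24), Hist1h4h −9106 (1.22) and Hist2h2be +433 (1.08). Their ratios in C57BL/6J were 1.83 (under the minimum level), 1.20, 0.72, 0.18, 0.50, 1.03 and 0.17, with no call, and none was called in the other direction. Without BALB/cJ LPS 2 the calls of Hist1h2al −36052 (1.83) and Hist1h1c −8185 (1.51) were lost, as were those of Hist2h4 +7193, Hist1h4h −9106 and Hist2h2be +433. Those of Hist1h4h −9106 and Hist2h2be +433 were lost in 4 and 5 of the 17 fits that left out a library. TGANTCA was in 6 of the 10 histone peaks that rose in either strain and in 1 of 42 and 1 of 41 that fell. Among other peaks it was in 46.9% and 43.9% of those that rose and 2.71% and 3.01% of those that fell in C57BL/6J and BALB/cJ, and in 14.3% of all peaks.

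The strain difference in the response asks whether C57BL/6J and BALB/cJ changed by different amounts. Of 163 histone peaks tested, 0 were called in either direction (edgeR's interaction test, 0.108% and 0.0368% of all tested peaks called higher and lower), 17 had an unadjusted p under 0.05, and DESeq2 called 0. Between the LPS-treated strains themselves 90 peaks were tested, 2 were higher and 2 lower in C57BL/6J (2.45% and 2.83% of all tested peaks). Hist1h4n −1 held 18.3, 41.6 and 33.5 in C57BL/6J LPS and 0 and 0.879 in BALB/cJ LPS libraries, and Hist1h4n +31 had a ratio of −1.36 ± 0.42 (edgeR adjusted p = 0.0459). Hist3h2ba −130 held 37.9, 38.2 and 28.7 against 7.84 and 7.92 (2.13 ± 0.56, edgeR adjusted p = 0.0148), and Hist2h2bb +5094 held 8.43, 0 and 0 against 27.9 and 47.5 (−4.08 ± 0.88, edgeR adjusted p = 0.00229). These 4 calls rest on 3 and 2 libraries. That of Hist1h4n +31 was lost in 11 of the 17 fits that left out a library, those without any 1 of the 5 LPS libraries among them (−1.45 to −1.20). That of Hist2h2bb +5094 was lost in 3 of the 17, those without BALB/cJ LPS 1 or 2 among them (−4.38 and −3.60). The call of Hist3h2ba −130 was lost without BALB/cJ LPS 1 or 2 (2.15 and 2.17), and that of Hist1h4n −1 without C57BL/6J LPS 2 or 3.

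The hybrid was counted in several ways by the authors, and its control columns disagreed with each other. In the 5 LPS libraries, columns of all tags were below those of perfectly mapped tags of the same library in 0.00891 to 0.0122% of peaks, and the deviations of both columns from their group means had r of 0.990 to 0.992 across peaks. In the 4 control libraries, all tags were fewer than perfectly mapped tags in 37.9 to 69.6% of peaks, and r was −0.00300 to 0.0499. All tags of a library contain its perfectly mapped tags, which the control columns did not bear out. Perfectly mapped tags that cover a base differing between the parents gave a further count. On the C57BL/6J allele it was 410569.5, 273280, 316223 and 336801 in controls 1 to 4. This count ranked the control libraries as perfectly mapped tags did, with control 1 highest and control 2 lowest. By all tags control 3 was highest (16692986.5) and control 4 lowest (6784424.5). In the LPS libraries all 3 counts gave the same ranking. Hybrid results by all tags rest on these control columns. The cause was not tested, and both results are given. By either set LPS and library date remain confounded, with LPS libraries 1 and 2 of 1 date and 3 to 5 of another.

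By all tags, with the control columns described above, the hybrid gave few calls among the 131 histone peaks matched to its table. After LPS 7 were lower and 6 higher (10.7% and 16.3% of all tested peaks), with a median log2 ratio of −0.14 against −0.07 for all peaks and −0.06 for the 46 at a start. By perfectly mapped tags 39 were lower and 8 higher (10.5% and 14.3% of all tested peaks), with a median of −0.56 against −0.09, −0.65 at starts (11 of 46 lower, 3 of the 11 H4 starts among them), −0.91 downstream (16 of 32 lower) and −1.09 upstream (6 of 13 lower). Of the other classes of start peaks, 3 of 11 H2B, 3 of 12 H3, 1 of 8 H2A and 1 of 4 H1 were lower by perfectly mapped tags. Other peaks by perfectly mapped tags had medians of −0.06 at starts (1423 of 13350 lower), −0.42 downstream (1562 of 11432) and −0.39 upstream (1006 of 7022). The histone peaks' share of tags in control libraries was 0.131 to 0.144% by all tags and 0.171 to 0.175% by perfectly mapped tags, and in LPS libraries 0.106 to 0.116% and 0.107 to 0.116%.

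At single starts the sign of the ratio differed between the sets of columns. Hist1h4d −37 held 398.5, 273.0, 468.8 and 354.3 normalised tags (scaled within the hybrid) in control and 458.6, 542.1, 553.6, 422.7 and 391.4 in LPS libraries by all tags, a log2 ratio of 0.34 ± 0.17 (edgeR adjusted p = 0.119). By perfectly mapped tags it held 1064, 673.3, 1055 and 922.3 in control and 514.1, 601.4, 592.2, 478.6 and 399.9 in LPS libraries, a ratio of −0.85 ± 0.15 (edgeR adjusted p = 5.81e-05), under the fold limit. Hist1h4a −250 had 0.21 ± 0.16 by all tags and −1.0 ± 0.12 by perfectly mapped tags (edgeR adjusted p = 0.303 and 2.06e-07).

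The following peaks, called in at least 1 parent, had the same direction in both sets. Hist1h2ac +24313 held 37.2, 8.81, 24.7 and 16.2 in control and 163.9, 185.7, 156.3, 138.9 and 185.1 in LPS libraries by all tags (2.89 ± 0.28) and 13.2, 15.4, 7.69 and 2.25 against 185.2, 208.0, 166.2, 158.0 and 190.8 by perfectly mapped tags (4.23 ± 0.36), without overlap in either set (edgeR adjusted p = 3.40e-10 and 2.45e-10). Hist1h1c −10434 had 2.79 and 1.09, Hist2h2aa2 −658 1.48 and 1.11, Hist1h2al −36052 2.94 and 2.33, and Hist2h2bb +5094 3.05 and 1.80, all called. Hist1h2ad +503 fell by 2.27 ± 0.55 and 3.38 ± 0.55 (edgeR adjusted p = 0.00149 and 1.86e-05). Hist1h4n −1, at 0 in untreated BALB/cJ, held 61.1, 64.6, 75.1 and 39.6 in hybrid control and 26.7 to 70.9 in hybrid LPS libraries by all tags, with 59.3, 85.2, 67.95 and 49.5 against 29.1 to 78.6 by perfectly mapped tags. These columns count tags mapped to the C57BL/6J genome and 82.5% of the 30-base runs of this peak are repeated, and the part of either was not tested.

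The alleles of the hybrid could be compared at few histone peaks, since a tag tells them apart only where it covers a base that differs between them. Of the 131, 28 had such tags, and 9 in control and 8 in LPS libraries had enough to be tested. No peak was called in control, in LPS or for the allele difference in the response (22 tested), with unadjusted p under 0.05 in 1, 2 and 2 (edgeR, with a term for each animal), and DESeq2 called 0 in each. Among all tested peaks, the C57BL/6J allele was called higher in 2.97% and lower in 3.1% in control, 9.96% and 7.97% in LPS, and 0 and 0% for the difference in response. In LPS libraries Hist3h2a +427 (−0.86 ± 0.25) and Hist1h2bj +6711 (0.83 ± 0.23) had adjusted p of 0.0423 and 0.0399 with edgeR but stayed under the fold limit. Hist1h4a −250 had 0.50 ± 0.18 in control and 0.20 ± 0.14 after LPS (edgeR adjusted p = 0.186 and 0.339).

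Other genes of histone supply were described from 3 lists, by peaks within 1 kb of their start. Their counts and medians are to be read against those given above for other peaks at, downstream or upstream of a start. At and downstream of a start, other peaks were lower more often than all tested peaks. For C57BL/6J 8.07% of all tested peaks were lower and 12.3% higher. The BALB/cJ shares were 11.3% and 16.2%. Whether the lists differ from other peaks near a start was not tested. Of 12 genes for replication-independent and variant histones 9 had peaks (18), of which 4 of 18 tested were lower and 1 higher after LPS in C57BL/6J and 3 of 17 lower and 1 higher in BALB/cJ, with median log2 ratios of −0.74 and −0.35. H3f3b +89, the start of a gene for H3.3, fell by 2.02 ± 0.29 and 1.88 ± 0.34 (edgeR adjusted p = 4.35e-06 and 4.97e-05). At H2afz, the gene for H2A.Z, the peak at −891 rose by 1.92 in both strains, while that at +748 fell by 1.40 and 1.3. H2afy (macroH2A1) +518 fell by 1.61 and 3.95, and H2afx (H2A.X) +453 fell by 1.19 in C57BL/6J.

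Of 18 genes for factors that act on histone genes or their messenger RNA 17 had peaks (31), of which 3 of 31 tested were lower and 1 higher in C57BL/6J and 5 of 31 lower and 1 higher in BALB/cJ (medians −0.52 and −0.47). The start of Slbp fell by 1.07 in C57BL/6J, that of Cpsf2, a cleavage factor, by 1.43 in C57BL/6J, and that of Yy1 by 1.01 and 1.21. Eri1 +573, near the start of an exonuclease of histone messenger RNA, fell by 2.29 in BALB/cJ. Lsm11 +516, at a component of the U7 particle that trims these messages, rose by 1.08 and 1.40.

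Of 27 genes for replication and proliferation all had peaks (47), with 1 of 45 tested lower and 1 higher in C57BL/6J and 8 of 47 lower and 0 higher in BALB/cJ (medians −0.41 and −0.47). Chaf1a −95, the start of a histone chaperone subunit, fell by 1.27 and 1.88, and in BALB/cJ Mki67 −210 fell by 1.11 and Cdt1 −305, a replication licensing factor, by 1.19. Between untreated strains, among the proliferation peaks, Ccne2 was higher in C57BL/6J than in BALB/cJ and a peak at E2f2 was higher in BALB/cJ than in both other strains.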

How the data were processed

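Purified Kupffer cells were profiled by ATAC-seq. The authors trimmed reads to 30 bp and used FastQC, Bowtie2, the mm10 build with genomes for A/J and BALB/cJ derived from it, HOMER and DESeq2, whose versions are not given in the sources used here. The deposited inbred table holds raw tag counts per peak for LPS libraries. Values of its control columns and of the hybrid table, which the authors counted with HOMER from Bowtie2 alignments, are here called expected counts. The methods do not use that name, which is given only because these values come partly in steps of 0.5 tags. They were rounded up here. The methods name 1000-bp windows, but the values match 200-bp regions. The deposited peak files gave a signal (tags scaled to a fixed total) used for that check, and the authors' lists of reproducible peaks, which carry a score, gave only presence.

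All peaks were fitted with edgeR 4.0.16 (TMM scaling, quasi-likelihood, with limma 3.58.1, in R 4.3.3), with a mean above 16 normalised counts for strains and alleles and above 4 for LPS and interactions, all 17 inbred libraries in 1 model. The methods speak of biological replicates, and nothing ties a library number to an animal or day. Inbred and hybrid peaks were matched at 50% reciprocal overlap, which left 131 of 165. Sequences were read with pysam 0.24.0 under Python 3.11.15. Fits were tested on simulated data.

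The peaks and gene lists were chosen with earlier results of these data known. Named peaks were the 5 largest calls each way in a comparison, the highest and lowest of each class and cluster, the longest chain and peaks with variant tags, and further peaks called after LPS were named after their values were seen. Alternatives changed the scaling, the tool (DESeq2 1.42.0), the minimum, the libraries, the windows, repeated sequence, the rounding and the replicate block.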

Additional observations from a re-analysis of the deposited data

Results flagged for a closer look

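In 6 of 179 groups of 4 libraries at named peaks, 1 library stood far from the others by Dixon's criterion, which chance alone gives in about 1 of 20 groups. Hist2h3c1 −6 had 5.47 normalised tags in A/J control 2, Hist3h2bb-ps +464 had 6.17 in A/J control 1, and Hist1h3f −65 had 9.25 in A/J control 1. Hist1h1c −10434 had 16 in C57BL/6J control 2, Hist1h4a −250 had 518 in C57BL/6J control 2, and Hist1h1e +53 had 254 in C57BL/6J control 3.

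Hist1h2ae +847, 1 of the weak peaks of the chain on chromosome 13, moved in opposite directions in the strains. C57BL/6J held 6.38, 8.02, 11.7 and 10.6 in control and 5.62, 3.40 and 5.58 after LPS, a log2 ratio of −0.89 ± 0.57 (SE), and BALB/cJ held 9.23, 6.83, 10.7 and 6.82 against 13.1 and 21.1, a ratio of 1.07 ± 0.53. Neither was called (edgeR adjusted p = 0.262 and 0.121), nor was the difference between them (−1.96 ± 0.78, unadjusted p = 0.0169, edgeR adjusted p = 0.522).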

How the results depend on the processing

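No called value changed sign under the alternatives run, but the uncalled ratios of Hist1h4d −37 and Hist1h4a −250 in the hybrid (0.34 and 0.21 by all tags) were −0.85 and −1.0 by perfectly mapped tags. Of the counts of called histone peaks, 153 of those recomputed stayed within 1.5 times the reported count and 31 did not. C57BL/6J against BALB/cJ controls (7 called) gave 11 with no minimum count, 0 with the doubled minimum, 4 with 1 peak per chain of overlapping 1000-bp windows and 4 to 6 with 1 library left out (4 without BALB/cJ control 1, C57BL/6J control 1 or 2). A/J against BALB/cJ (1 called) gave 0 with 1 per chain, 0 without peaks of repeated sequence and 0 to 2 with 1 library left out (2 without A/J control 1, 0 without A/J control 4). A/J against C57BL/6J (11 called) gave 3 with the doubled minimum, 7 with identical copies summed, 5 with only the groups compared, 5 without repeated sequence and 5 to 9 with 1 library left out (5 without A/J control 2). LPS in C57BL/6J (45 called) gave 13 with 1 per chain and 27 to 51 with 1 library left out, and LPS in BALB/cJ (51 called) gave 25 and 28 to 54. C57BL/6J LPS against BALB/cJ LPS (4 called) gave 10 with no minimum, 0 with the doubled minimum, 2 with copies summed, 2 without repeated sequence and 2 to 3 with 1 library left out (2 without C57BL/6J LPS 3 or either BALB/cJ LPS library). LPS in the hybrid (13 called) gave 27 when scaled to total counts, 47 with perfectly mapped tags, 5 with 1 per chain and 10 to 16 with 1 library left out. The allele comparison after LPS (0 called) gave 0 to 1, the 1 without CB6F1/J LPS 5. The median level of 25.2 was 43.1 with 1 per chain. The cause of these shifts was not tested, except that a stricter minimum, 1 peak per chain and peaks left out leave fewer peaks to call. Summed copies and a split of the hybrid by LPS library date, with medians of −0.07 and −0.25, were chosen after seeing the data.

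With the replicate number as a block, 7, 2 and 11 peaks were called in the strain comparisons above, 46 and 53 for LPS in C57BL/6J and BALB/cJ, 5 between LPS-treated strains, 0 for the interaction and 14 in the hybrid, and the allele comparisons without their block gave 0 each. Libraries of the same number had correlations of their deviations of −0.0974 to 0.375 in the inbred table (9 of 29 above 0.1) and −0.132 to 0.0116 in the hybrid (0 of 4), so the numbers were not taken to pair libraries.

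The median log2 ratio after LPS ranged over the alternatives from −0.88 to −0.55 in C57BL/6J, from −0.84 to −0.29 in BALB/cJ and from −0.76 to −0.03 in the hybrid. Depth limits the weak peaks most, as many downstream peaks held under 10 tags after LPS, and n = 2 limits BALB/cJ LPS.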
